A study of Mus musculus with 6 samples.

Results

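The genes described here are the Notch receptors Notch1, Notch2, Notch3 and Notch4, the Jagged ligands Jag1 and Jag2, and the transcriptional repressors Hes1, Hey1, Hey2 and Heyl. They were chosen by name, as every row of the authors' deposited comparison table that carries 1 of these 10 symbols. All 10 genes had a row, and Notch2, Notch4 and Hey2 had 2 each, which gave 13 of the 25697 rows and 10 of 18033 gene symbols. The ovaries came from Swiss mice of postnatal day 3 to 4, carried no stated genetic change, and were kept on culture inserts for 96 h in medium with 5% fetal calf serum, basic fibroblast growth factor (40 ng/ml), leukemia inhibitory factor (50 ng/ml) and stem cell factor (25 ng/ml), beside supplements such as albumin, insulin and ascorbic acid, in both groups. In the 3MC group (3 samples) the medium held 5 µM 3-methylcholanthrene, an aromatic hydrocarbon and ligand of the aryl hydrocarbon receptor (AhR), at a concentration chosen, per the labels, to be overtly toxic. In the DMSO group (3 samples) it held the vehicle, 0.01% dimethyl sulfoxide; the labels do not give the vehicle content of the 3MC medium. Each sample was read on 1 Illumina Mouse Ref-8 v2 BeadChip, and the number of arrays limits the precision.

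Notch receptors sit in the cell membrane and are switched on by ligands of the Jagged and Delta-like families on a neighbouring cell. Ligand binding lets an ADAM protease and then gamma-secretase cut the receptor, and the freed intracellular domain joins the DNA-binding protein RBPJ and a Mastermind coactivator to switch on genes such as those of the HES and HEY repressors. In the neonatal mouse ovary, Jagged1 is known from oocytes and Notch2 from the somatic cells around them, where the pathway takes part in the breakdown of germ cell nests and the forming of primordial follicles. Notch3 is known from pericytes and vascular smooth muscle, and Notch4 from endothelium.

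Notch3 rose with 3MC and was the member that changed most. A smaller rise of Notch4 was called at 1 of its 2 rows, the only one tied to 1 probe, and for Hey1 no difference was called. The other 10 rows, which include every row of Notch1, Notch2, Jag1, Jag2, Hes1, Hey2 and Heyl, had ratios of 3MC to DMSO between 0.906 and 1.12 in the authors' deposited table. That table gives gene names without values per array, and the tables of array values give probe identifiers without gene names. Values per array are therefore given only where the ratio of a row was met by 1 probe alone within 5e-05 on the log2 scale. This linked the Notch3 row, 1 Notch4 row and the Hey1 row, while 4 rows had 2 or 3 candidate probes and 6 rows had 6 to 18. Rows with a large change were linked far more often (94.8% of those 1.5-fold or more apart) than rows within 1.1-fold (0.581%).

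**Figure D1:**
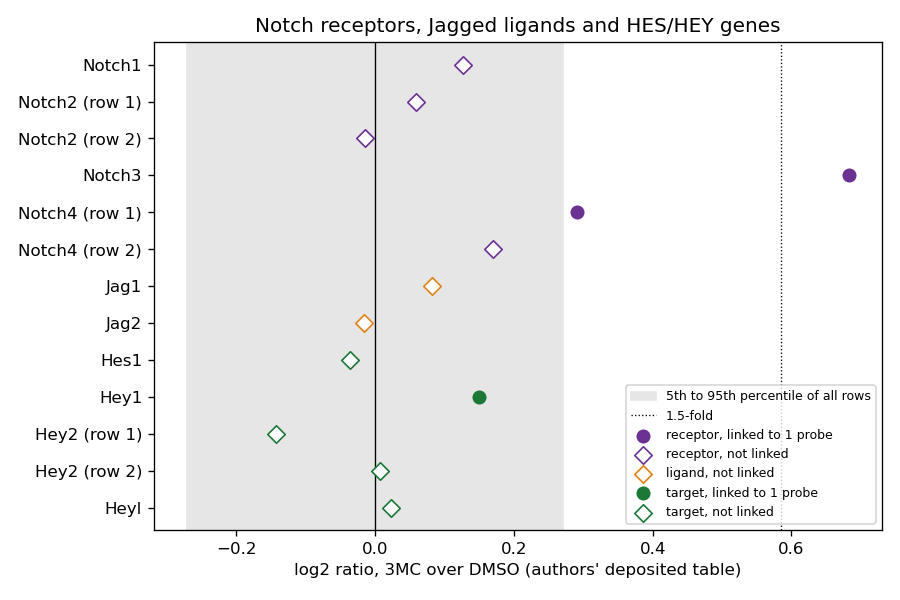
Log2 ratio of 3MC to DMSO (x axis) for each of the 13 rows in the authors' deposited table, coloured by role. Filled circles mark rows linked to 1 probe, open diamonds the others, grey the 5th to 95th percentile of all 25697 rows (ratios of 0.829 to 1.21), and row 1 of a gene is the one with the smaller p. Notch3 at 0.68 and the first Notch4 row at 0.29 lie right of the grey band, and the other 11 rows lie within it.

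Median scanner signal per array was 124.5, 98.1 and 99.4 in 3MC replicates 1 to 3, against 109.1, 107.9 and 107.8 in DMSO replicates 1 to 3, so 3MC replicate 1 was the brightest array. After normalization, arrays correlated across probes, which are not independent replicates, at r = 0.995 to 0.996 within groups and r = 0.987 between them. Of oocyte markers, 5 genes had a linked probe, and all 5 of these probes were brighter than the median probe. Of them 3 were higher and 2 lower in 3MC, and 7 of the 14 oocyte rows had ratios above 1. Markers of macrophages and leukocytes were lower in 3MC at 19 of 21 rows, with a median log2 ratio of -0.90. The summed signal of their 17 probes that were linked and tested was 2058 to 2135 in 3MC, against 6307 to 6458 in DMSO. In whole ovaries, fewer cells of a type and less RNA per cell cannot be told apart. Whether the 3 samples of a group are separate cultures or animals is not stated in the labels, and p-values therefore measure a spread that may be technical.

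Notch3 (probe ILMN_2697380, chromosome 17) encodes the receptor best known from the wall of small arteries. Its normalized log2 signal was 7.67, 7.46 and 7.71 in 3MC replicates 1 to 3, against 6.63, 6.66 and 6.97 in DMSO replicates 1 to 3. Every 3MC array lay above every DMSO array, with a gap of 0.49 between the nearest values, and DMSO replicate 3 was the highest of its group. The means were 7.61 ± 0.13 in 3MC and 6.75 ± 0.19 in DMSO (SD, n = 3 each), a log2 fold change of 0.86 ± 0.095 (SE), or 1.81-fold (adjusted p = 4.52e-09, limma). The 95% interval of the log2 difference was 0.66 to 1.05. In the scanner's own units, before any correction, the probe read 307.2, 175.7 and 188.8 in 3MC, against 132.2, 132.0 and 154.9 in DMSO. The ratio in the authors' deposited table was smaller, 1.605 (p = 5.67e-06, unadjusted), and only 0.798% of all rows had a higher one. The p-values of that table are not those of a fit of group alone to these 6 arrays, which gave p = 0.00283 for Notch3, 0.00499 for Notch4 and 0.183 for Hey1 on the deposited log2 values (4 residual degrees of freedom, two-sided, normal theory and not an exact test). The authors' deposited table had the smaller p at 74.0% of the 2656 linked rows, from a model that is not stated, so its p-values are printed as given and no call rests on them. The probe was brighter than 66.8% of probes, so the background correction carries weight: the log2 fold change was 0.71 with none and 1.13 with a smaller offset of 16, and it passed the test in both cases.

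Notch4 encodes a receptor of endothelial cells, and the gene lies within the major histocompatibility complex on chromosome 17. Its linked probe (ILMN_1220697) had a normalized log2 signal of 7.21, 7.33 and 7.41 in 3MC replicates 1 to 3, against 6.95, 7.00 and 6.89 in DMSO replicates 1 to 3. The groups did not overlap, and the nearest values were 0.21 apart. The log2 fold change was 0.37 ± 0.086 (SE), or 1.29-fold (adjusted p = 0.00110, limma, means of 7.31 ± 0.10 in 3MC and 6.95 ± 0.052 in DMSO, SD, n = 3 each), with a 95% interval of 0.19 to 0.54. The call was lost with arrays only centred on their medians. The log2 fold change was then 0.30, with a larger SE of 0.14 (adjusted p = 0.213, limma). Unscaled scanner signals were 227.2, 163.2 and 160.9 in 3MC and 159.1, 160.7 and 147.7 in DMSO, so the lowest 3MC array lay barely above the highest DMSO array. In the authors' deposited table this row had a ratio of 1.224 (p = 0.00150, unadjusted), and the second Notch4 row, for an older version of the same transcript, had 1.125 (p = 0.0370, unadjusted).

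Hey1, a repressor of the hairy family that Notch induces in blood vessels, had the third row linked (probe ILMN_2690596, chromosome 3). Its normalized log2 signal was 9.02, 9.23 and 9.11 in 3MC replicates 1 to 3, against 9.04, 8.82 and 9.04 in DMSO replicates 1 to 3. The groups overlapped, with 3MC replicate 1 below DMSO replicates 1 and 3. The log2 difference was 0.15 ± 0.090 (SE, adjusted p = 0.195, limma), with a 95% interval of -0.028 to 0.34, which holds 0 and also values near the Notch4 log2 fold change. The link of this row is the least secure of the 3, since the next probe lay 5.14e-05 away, just outside the tolerance, against 8.40e-05 for Notch4 and 0.00148 for Notch3.

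**Figure D2:**
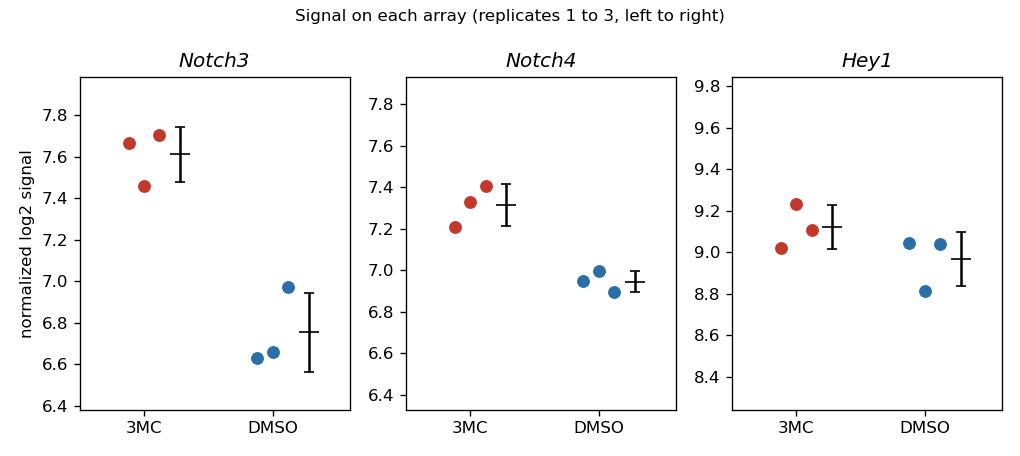
Normalized log2 signal (y axis) of the probes linked to Notch3, Notch4 and Hey1 on the 3 arrays of 3MC (red) and the 3 of DMSO (blue), with the mean and SD beside each group in black. The panels span the same height in log2 units. The groups lie apart for Notch3 and Notch4 and overlap for Hey1.

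Passing the test was common on these arrays, so the count over the members says little by itself. Of the 3 linked probes, all of which passed the filter on dim probes, 2 passed at an adjusted p under 0.05, both higher in 3MC. Over all 12848 tested probes the share was 32.2% (15.8% higher and 16.4% lower), and over the 2562 tested probes that were linked it was 86.1% (43.1% higher and 43.0% lower). The groups did not overlap at 42.4% of all tested probes and at 88.9% of the linked ones. Of the 13 rows of the authors' deposited table, 1 was 1.5-fold or more apart, against 2.10% of all rows. At 1.2-fold or more the number was 2, both higher in 3MC, against 10.5% of all rows (5.21% higher and 5.30% lower). Unadjusted p-values under 0.05 stood at 3 of 13 rows (23.1%) and at 20.2% of all rows of that table. Ratios above 1 were found at 9 of 13 rows, against 50.4% of all rows.

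The sequences before the start of Notch3 and Notch4 are shown because these were the members called higher in 3MC, and that of Hey2 because it was the one member window with the core letters of an RBPJ site. The windows are those of RefSeq (GRCm38.p6), from 250 bases before to 50 after the start of the gene, and 7 of the 10 members matched one (not Hes1, Hey1 and Heyl). Capitals mark GCGTG, the core of the element that AhR binds, and TGGGAA, the core of the RBPJ site, each searched on both strands (CACGC and TTCCCA on the other).
Notch3 (chr17:32166841-32167140, minus strand): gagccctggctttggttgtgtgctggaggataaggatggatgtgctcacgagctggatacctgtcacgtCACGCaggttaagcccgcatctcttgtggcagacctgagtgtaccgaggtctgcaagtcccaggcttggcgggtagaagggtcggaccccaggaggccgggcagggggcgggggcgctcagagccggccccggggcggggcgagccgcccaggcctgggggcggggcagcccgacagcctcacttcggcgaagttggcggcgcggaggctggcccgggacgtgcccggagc
Notch4 (chr17:34564045-34564344, plus strand): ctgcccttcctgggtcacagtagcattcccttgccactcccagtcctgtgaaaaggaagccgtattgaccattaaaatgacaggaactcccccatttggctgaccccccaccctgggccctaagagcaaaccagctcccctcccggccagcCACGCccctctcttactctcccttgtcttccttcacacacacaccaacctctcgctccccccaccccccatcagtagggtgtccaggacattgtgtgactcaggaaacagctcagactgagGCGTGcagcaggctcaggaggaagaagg
Hey2 (chr10:30842734-30843033, minus strand): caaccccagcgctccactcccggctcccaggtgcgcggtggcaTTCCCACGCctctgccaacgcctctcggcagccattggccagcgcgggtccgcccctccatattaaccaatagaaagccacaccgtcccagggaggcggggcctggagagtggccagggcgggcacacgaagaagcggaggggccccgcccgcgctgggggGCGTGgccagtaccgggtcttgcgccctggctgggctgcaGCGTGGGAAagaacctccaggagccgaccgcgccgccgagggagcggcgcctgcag
Notch3 held 1 copy of GCGTG, 181 bases before the start, and Notch4 held 2, the first 99 bases before it and the other after it. Hey2 held 3 copies of GCGTG and 2 of TGGGAA, and each TGGGAA overlapped a GCGTG, so that the letters run together in the capitals. All 7 windows held GCGTG, those of Notch1, Notch2, Jag1 and Jag2 included. The ratios of these 4 genes lay between 0.989 and 1.09, from rows that were not linked to 1 probe. Of all 32851 windows 32.4% held GCGTG and 25.6% held TGGGAA. The member windows were richer in G and C (55.7% to 86.0%) than the median window (52.7%), and both letters fill most of the GCGTG motif. Windows of like G and C content were not compared, and a part of these letters in the ratios was not tested. A match is a description of the letters and not a site.

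Among the other receptors, Notch1 had a ratio of 1.092 in the authors' deposited table (p = 0.0540, unadjusted), which 2 probes met. Notch1 is the receptor best known from T cell development and arteries. If the brighter candidate (ILMN_1241915) is the Notch1 probe, its log2 signal was 7.17, 7.18 and 7.07 in 3MC and 7.02, 6.87 and 7.05 in DMSO, a log2 difference of 0.16 ± 0.087 (SE, adjusted p = 0.158, limma). If it is the dimmer one (ILMN_2985657), which lay below the median probe and was not tested, the values were 6.00, 6.10 and 6.05 in 3MC and 5.87, 5.79 and 5.88 in DMSO. Groups did not overlap at 42.4% of all tested probes, a share that leaves out dim probes such as the second candidate. At both candidates every 3MC array lay above every DMSO array, by 0.017 and 0.12 between the nearest values. The mean difference is close by construction, since both were selected by the same ratio.

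Notch2, the receptor of the cells that become granulosa cells, had rows of 1.042 and 0.990 in the authors' deposited table (p = 0.120 and p = 0.727, unadjusted), on either side of 1. The first row was met by 3 probes, all dimmer than the median probe, and the groups overlapped at each of them. Their mean signals exceeded only 14.2% to 23.9% of all probes. Whichever of them reads Notch2, its signal was too dim to test here. The second Notch4 row had a candidate on each side of the median probe, and the groups did not overlap at either. The share over all tested probes was 42.4%, which leaves out dim probes such as the second candidate. The brighter one (ILMN_3146196) had a log2 difference of 0.19 ± 0.087 (SE, adjusted p = 0.0980, limma). Over the 6 receptor rows, 5 ratios were above 1, and the median log2 ratio was 0.15, against 0.00 over all rows.

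The Jagged ligands had ratios close to 1. Jag1, the ligand of oocytes, stood at 1.058 (p = 0.232, unadjusted) and Jag2, a second ligand of the same family, at 0.989 (p = 0.889, unadjusted) in the authors' deposited table. These ratios were met by 6 and 13 probes, so neither gene has values per array, and a ratio near 1 does not tell an unchanged transcript from a probe without signal.

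The HES and HEY genes, read as targets of the pathway, had ratios on both sides of 1, most of them close to it. In the authors' deposited table Hes1, the general Notch target that represses differentiation genes, had a ratio of 0.975 (p = 0.668, unadjusted), and Heyl, a target known from vascular smooth muscle, had 1.016 (p = 0.749, unadjusted). Hey2, which acts with Hey1 in arteries and the heart, had rows of 0.906 (p = 0.0688, unadjusted) and 1.005 (p = 0.911, unadjusted) in the authors' deposited table. The ratios of Hes1, Heyl and the second Hey2 row were met by 12, 12 and 18 probes, so these rows have no values per array. Ratios near 1 do not tell an unchanged transcript from a probe without signal. Both candidates of the lower Hey2 row were tested, with log2 differences of -0.18 ± 0.086 and -0.21 ± 0.091 (SE, adjusted p = 0.118 and adjusted p = 0.0748, limma). At the first candidate the groups lay apart, and at the other 3MC replicate 2 lay above DMSO replicate 3. Over the 5 rows of these repressors the median log2 ratio was 0.01, and 3 ratios were above 1.

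**Figure D3:**
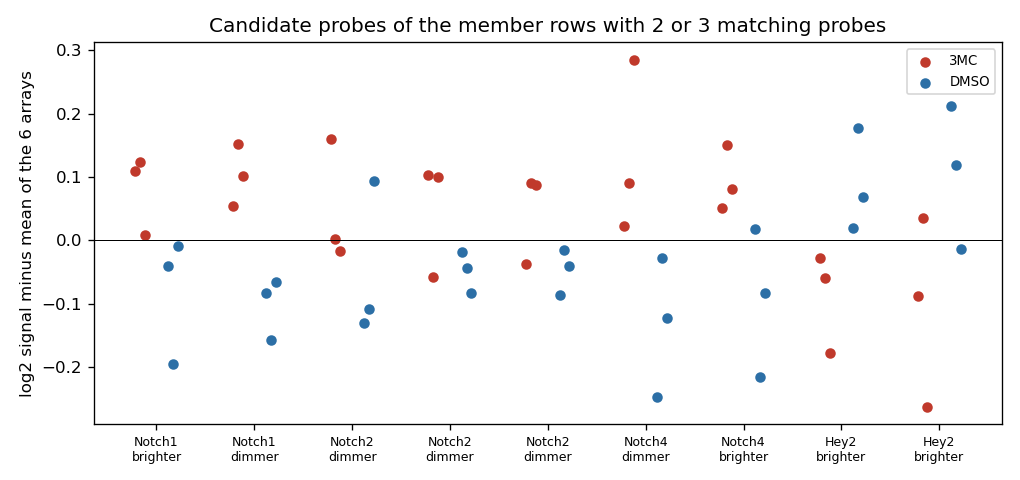
Log2 signal minus the mean of the 6 arrays (y axis) for the 9 candidate probes of the 4 rows met by 2 or 3 probes, 3MC in red left of DMSO in blue. Labels give whether the probe was brighter or dimmer than the median probe. Groups lie apart at both candidates of Notch1 and of Notch4 and at 1 of 2 of Hey2, and they overlap at all 3 of Notch2. Over all tested probes, which leave out the dimmer ones, groups lie apart at 42.4%.

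The rest of the pathway was read from lists of 71 other genes by role, of which 64 had 105 rows. The listed genes without a row, Hdac1, Dtx3 and Itch among them, were not analysed here. Of these rows 5 (4.76%) were 1.5-fold or more higher in the authors' deposited table and 0 as much lower, against 1.12% and 0.981% of all rows. They belonged to Mfap5, Ccnd1, Bhlhe40 and Dlk1, with Ccnd1 counted more than once. The median log2 ratio over the 105 rows was -0.002. The lists were chosen with earlier results of these data known, so these shares are not a test of the pathway. Only 13 rows were linked, and all 13 passed, 8 higher and 5 lower, against 86.1% of linked tested probes. With arrays centred on their medians 5 of the 13 passed, where 1106 of all 12848 tested probes did, against 4136 in the main fit. The share of linked probes passing in that setting was not computed. These 5 were Mfap5, Bhlhe40 and 1 Ccnd1 probe, higher, and Psenen and Dtx2, lower.

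Of the 11 rows of ligands outside the Jagged family, 8 had ratios above 1 in the authors' deposited table, and those of Mfap5 and Mfap2 were linked. Mfap5, a microfibril protein that can bind Jagged1 and Notch1, had a log2 signal of 7.83, 7.96 and 7.96 in 3MC replicates 1 to 3, against 7.00, 6.86 and 6.95 in DMSO replicates 1 to 3. The groups were 0.83 apart at their nearest values, and the log2 fold change was 0.98 ± 0.086 (SE, 1.97-fold, adjusted p = 1.76e-11, limma, n = 3 each). Its relative Mfap2 rose by a log2 fold change of 0.32 ± 0.085 (SE, adjusted p = 0.00350, limma), a call lost with median centring (0.19, adjusted p = 0.479). Dlk1, a membrane protein related to the Delta ligands, had a ratio of 1.525 in the authors' deposited table (p = 0.000211, unadjusted) and was not linked. The Delta-like genes Dll1, Dll3 and Dll4 had ratios of 1.031, 1.053 and 0.984 there. Of the noncanonical ligands, Dner, known from neurons, had 0.875 (p = 0.00702, unadjusted), Cntn1 0.993 and Dlk2 1.046 in the authors' deposited table. Over the 11 rows the median log2 ratio was 0.07. Fringe and other sugar-adding enzymes of the receptors, with furin, had 11 rows, none linked and none 1.5-fold apart (median 0.01).

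Of the proteases that cut the receptor, Psenen, a subunit of gamma-secretase, fell. It read 11.31, 11.29 and 11.32 in 3MC replicates 1 to 3, against 11.81, 11.58 and 11.72 in DMSO replicates 1 to 3. The log2 fold change was -0.40 ± 0.087 (SE, adjusted p = 0.000475, limma), with no overlap between the groups. In the authors' deposited table Psen2, a catalytic presenilin, had a ratio of 0.812 (p = 0.0245, unadjusted). Rows of the scaffold Ncstn lay at 0.957, 0.981 and 1.044, and Adam10 and Adam17 at 1.000 and 1.056 in the same table. The 13 rows of this list had a median log2 ratio of -0.01.

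In the nucleus, the 3 rows of Rbpj had ratios of 0.962, 0.976 and 0.994 in the authors' deposited table, and Maml1, Maml2 and Maml3, the Mastermind coactivators, had 0.991, 0.999 and 0.939. Among corepressors, Ncor1 fell by 0.38 ± 0.088 on the log2 scale (SE, adjusted p = 0.000880, limma) and a linked probe of the Groucho relative Tle4 by 0.28 ± 0.088 (SE, adjusted p = 0.0139, limma). A linked probe of Tle1, another Groucho relative, rose by 0.42 ± 0.089 (SE, adjusted p = 0.000400, limma). None of these 3 calls held with median centring, where standard errors were larger. The log2 differences were then -0.51 for Ncor1 and -0.41 for Tle4, both farther from 0 (adjusted p = 0.0704 and 0.113), and 0.29 for Tle1 (adjusted p = 0.337). Tle4 also lost its call without DMSO replicate 1 or 3MC replicate 1 (adjusted p = 0.0841 and 0.0677), and the other rows of Tle1 and Tle4 lay between 0.933 and 1.059 in the authors' deposited table. The coactivator Ep300, not linked, had a ratio of 0.796 in the authors' deposited table (p = 0.00247, unadjusted).

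The list of other HES and HEY relatives and of genes known as direct targets of Notch in some tissues divided. Nrarp, a feedback inhibitor that Notch induces, had a log2 signal of 7.39, 7.37 and 7.48 in 3MC replicates 1 to 3, against 7.12, 7.13 and 7.22 in DMSO replicates 1 to 3. The groups did not overlap, and the log2 fold change was 0.26 ± 0.085 (SE, adjusted p = 0.0201, limma), a call lost with median centring (0.18, adjusted p = 0.518) and without DMSO replicate 1, DMSO replicate 2 or 3MC replicate 3 (adjusted p = 0.0697, 0.0631 and 0.0712). Ccnd1, the cyclin D1 gene, rose at both linked probes, by log2 fold changes of 0.76 ± 0.087 and 0.65 ± 0.087 (SE, adjusted p = 8.73e-09 and 2.43e-07, limma), of which the second lost its call with median centring (0.51, adjusted p = 0.0633). Bhlhe40, a circadian and stress-induced repressor listed here beside the HES and HEY genes, rose by 0.74 ± 0.084 (SE, adjusted p = 8.55e-09, limma). Dtx1, a Notch-induced regulator of the receptor, had a log2 difference of -0.28 ± 0.094 (SE, adjusted p = 0.0193, limma) with overlapping groups, and it did not pass with median centring (a difference as large, -0.29 ± 0.16, adjusted p = 0.308) or without DMSO replicate 2, DMSO replicate 3 or 3MC replicate 3 (adjusted p = 0.0890, 0.0630 and 0.152). Rows of Hes2, Hes3, Hes5, Hes6 and Hes7 lay between 0.937 and 1.034 in the authors' deposited table. Those of Myc had 0.928 and 0.975, and those of Id1, Id2, Id3, Helt and Bhlhe41 lay between 0.939 and 1.022. Over the 22 rows of this list the median log2 ratio was -0.002, and 11 ratios were above 1.

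Of genes that turn over or carry the receptor, Dtx2, a ubiquitin ligase, fell by 0.46 ± 0.087 on the log2 scale (SE, adjusted p = 9.28e-05, limma). Its relative Dtx4 rose by 0.41 ± 0.086 at its linked probe (SE, adjusted p = 0.000283, limma), while another Dtx4 row had a ratio of 0.901 in the authors' deposited table (p = 0.0403, unadjusted), so the direction of Dtx4 is uncertain. Dtx4 also lost its call with median centring (0.32, adjusted p = 0.217). Numb, which restrains Notch, had rows between 0.926 and 1.054 in the authors' deposited table.

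**Figure D4:**
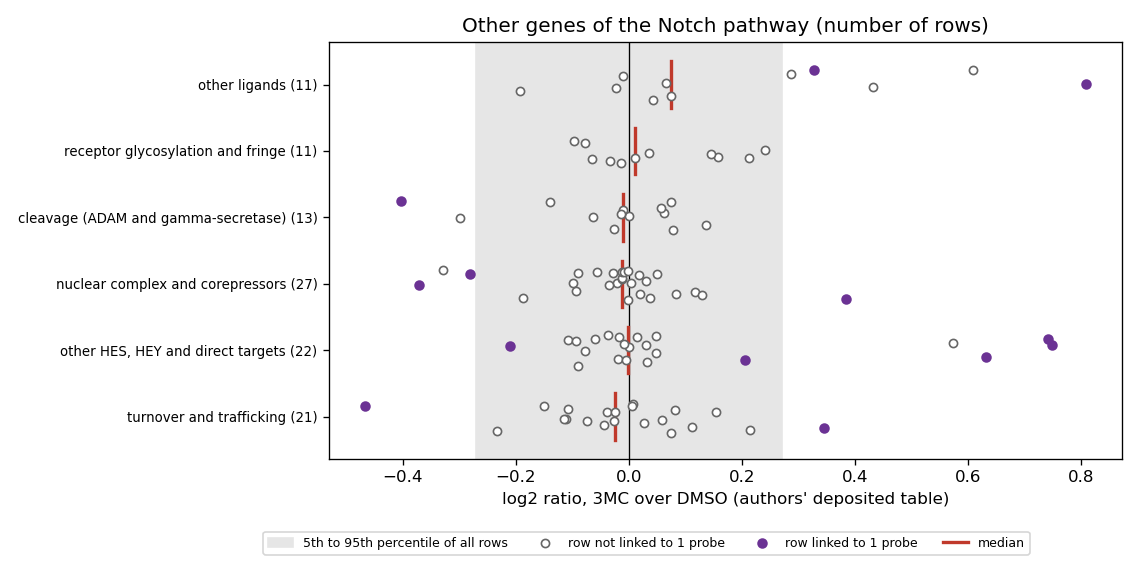
Log2 ratio of 3MC to DMSO (x axis) in the authors' deposited table for the 105 rows of other Notch pathway genes, by role, with the number of rows in brackets and a red bar at each median. Filled points are linked to 1 probe, and grey spans the 5th to 95th percentile of all rows. Medians lie between -0.02 and 0.07, and the points farthest right are Mfap5, Ccnd1, Bhlhe40 and Dlk1.

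Notch3, Notch4 and the HEY genes are known from mural cells and endothelium, so the markers of these cells are given beside them. Of 19 rows of pericyte and smooth muscle markers, 16 had ratios above 1 in the authors' deposited table, with a median log2 ratio of 0.09. Abcc9 (1.579), Mcam (1.365) and Myh11 (0.739) had the linked rows farthest from 1. The other rows of Abcc9 lay between 0.970 and 1.080 and those of Mcam at 1.066 and 1.116, none of them linked. All 5 linked probes passed, 4 higher and 1 lower, where 86.1% of all linked tested probes passed. Their mean log2 signal was 8.32, 8.28 and 8.21 in 3MC, against 7.98, 7.91 and 7.99 in DMSO. Their summed signal, 5009 to 5249 in 3MC and 4048 to 4325 in DMSO, came mostly from Acta2 (mean log2 signal 12.12 in 3MC and 11.84 in DMSO). Linked rows are mostly those that differ, so sums over linked probes do not stand for a whole list. Rows of Rgs5 and Pdgfrb, listed here with the pericyte markers, had ratios of 1.048 and 1.052 in the authors' deposited table, and neither was linked. Of 15 endothelial rows 8 were above 1, with a median log2 ratio of 0.00, and both linked probes (Esam, 0.757, and Cldn5, 0.859 in the authors' deposited table) were lower, with a summed signal of 761 to 940 in 3MC and 1081 to 1185 in DMSO. Stromal markers had a median log2 ratio of 0.14 and 12 of 14 rows above 1. The part of these cell types, leukocytes included, in the Notch3 and Notch4 values was not tested.

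The pattern of Notch3 over the 6 arrays was set beside those of 2561 probes of other genes that were linked and tested, by the root mean square difference of log2 signals centred on their own means. The nearest were Vopp1 (0.0751) and Cx3cl1, a membrane-bound chemokine (0.0752), with log2 fold changes of 0.79 and 0.90. For Notch4 they were Erlin2 (0.0266) and Fnip1 (0.0299), and for Hey1 they were Ncoa5 (0.0386) and Tmem185b (0.0544). With 3 arrays per group, this measure takes in the group difference and the spread within groups together.

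**Figure D5:**
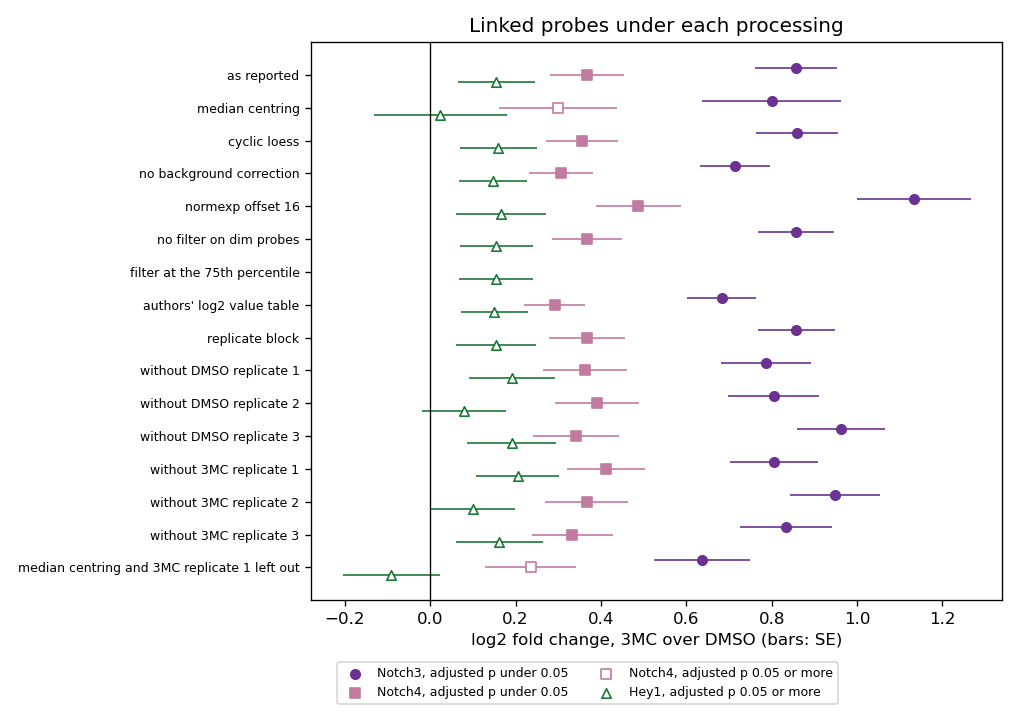
Log2 fold change of 3MC over DMSO (x axis, bars are SE) for the probes linked to Notch3, Notch4 and Hey1 under each processing (y axis), with filled symbols where the adjusted p was under 0.05. Notch3 is filled in each setting that tested it, at 0.64 to 1.13. Notch4 is open under both median-centred settings, and Hey1 is open throughout.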

How the data were processed

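Total RNA, turned into biotinylated cRNA, was read on 6 arrays, per the labels' protocols. The authors deposited scanner intensity per probe, without background subtraction, detection p-values or control probes. A deposited value table holds log2 values of these probes, judged so because each column follows its own array; how it was normalized is not stated, and lumi appears in the submitters' processing notes with no role. In the authors' comparison sheet, each row has an unadjusted p-value, a ratio (3MC over DMSO) and a signed fold, which is a score equal to the ratio or minus its inverse, per the file headers, and the model is not stated.

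Rows were linked to probes by the ratio, set against the difference of group means of the deposited log2 values. Sorted, these differed by 2.55e-06 at the median and by at most 8.69e-05. Each had to be the other's only partner within 5e-05, which linked 2656 of 25697 rows. The link uses the ratio on the same arrays, so the size of a linked probe's difference is not independent of it. Symbols were updated by transcript accession (23735 rows matched RefSeq).

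Background was corrected with normexp (offset 50), followed by log2 and quantile normalization. Probes above the median mean signal were kept (12848) and tested with limma 3.58.1 in R 4.3.3 (lmFit, eBayes, two-sided, group only), with Benjamini-Hochberg adjustment over the kept probes and a threshold of 0.05. The moderated test has 30.8 prior and 4 residual degrees of freedom, so standard errors come mostly from all probes pooled. Fits were tested on simulated data. All members were named, and from the pathway lists every linked gene that passed and the 5 largest ratios in each direction. The members, lists and rules were chosen with earlier results of these data known.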

Additional observations from a re-analysis of the deposited data

How the results depend on the processing

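Of 12848 tested probes 4136 passed (2028 higher and 2108 lower in 3MC). Median centring gave 1106 (343 higher and 763 lower), and the filter at the 75th percentile of signal gave 2512, since it tests 6424 probes. Without 1 array the count was 3339 to 3607. Higher calls were 49.0% of those passing with quantile normalization and 31.0% with median centring. With 3MC replicate 1 also left out, an alternative chosen after seeing the data, median centring gave 5670, 568 higher and 5102 lower, and moved the median of all tested log2 fold changes to -0.20.

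Of the linked member probes, 2 passed. The number was 1 with median centring and also 1 when 3MC replicate 1 was left out of it, 0 at the 75th percentile, where Hey1 alone is tested, and 1 at a join tolerance of 0.0001, where Notch3 alone is linked. Without 1 array it was 2 to 2. Notch4 did not pass with median centring (0.30, adjusted p = 0.213, limma), or with 3MC replicate 1 also left out (0.24, adjusted p = 0.0690, limma). In that last setting Hey1 turned to -0.091 (adjusted p = 0.541, limma). Without 1 array Notch3 ranged from 0.79 to 0.96, Notch4 from 0.33 to 0.41 and Hey1 from 0.079 to 0.20. At 1.2-fold, 2 member rows of the authors' deposited table counted as changed, against 1 at 1.5-fold. The causes of these shifts were not tested beyond the construction of each setting.

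The labels number the replicates 1 to 3 in both groups. Deviations from the group means correlated at -0.079, -0.0962 and 0.084 for equal numbers, so the numbers were not taken to pair samples. With the replicate number as a block, 3986 probes and 2 member probes passed. The log2 fold changes of Notch3 and Notch4 were then 0.86 (adjusted p = 7.03e-09) and 0.37 (adjusted p = 0.00197). No platform table of probes and genes was used here, so a join by one was not run. Dim probes limit Notch2 and 1 candidate each of Notch1 and Notch4.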
